A study of Mus musculus with 24 samples.

Results

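Neuron cultures derived from the medial ganglionic eminence (MGE) of wild-type (WT) mice were compared after 6 h and after 1 h of continuous membrane depolarization. The comparison uses 4 arrays of the 24 in the series, chosen by their titles, with 2 arrays at 6 h and 2 at 1 h. The MGE is the embryonic region that gives rise to many inhibitory interneurons of the cortex. Cells were taken at embryonic day 14 from C57Bl/6 WT littermates of Npas4 knockout (KO) animals, grown for 10 days, silenced overnight from day 9 with the sodium channel blocker TTX and the NMDA receptor antagonist AP-5, and then exposed to 55 mM extracellular KCl. The MGE KO cultures and the cortical (CTX) WT cultures used beside them had the same preparation, silencing and KCl, and at 0 h the silenced cells had no KCl. All groups therefore share the silencing, and how the Npas4 allele was made is not given in the sources used here. Affymetrix mouse arrays were hybridized with material amplified by NuGEN Ovation V2 from 100 ng of RNA. The values below are log2 of the deposited intensities, and differences are 6 h minus 1 h.

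Depolarization opens voltage-gated calcium channels, and calcium entry activates kinases that act on transcription factors already present in the neuron. A first set of genes, the immediate early genes, is transcribed without new protein synthesis and includes transcription factors such as those of the Fos, Egr and Nr4a families and Npas4. Their products are known to act on a later set of genes for secreted factors, channels and synaptic proteins, and many early transcripts are short-lived. Inhibitory and excitatory neurons are known to share much of the early set and to differ in the later one.

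Array medians lay between 115 and 121 on the linear scale, or 6.84 to 6.92 on the log2 scale. A level below that median is not shown to be above background, since the files used here give no detection calls. Differences that involve such levels may understate the change. The repeat arrays correlated at r = 0.986 at 6 h and r = 0.977 at 1 h, within the range of 0.951 to 0.992 over the 12 groups. The 0 h pair of MGE WT stood apart most (r = 0.951, 1507 of 12378 genes over 2-fold apart between its arrays, against 288 at 6 h and 549 at 1 h). Nothing in the labels says that repeats came from separate cultures, so p-values measure the spread between these arrays, which may be technical. The interneuron genes Gad1, Gad2, Slc32a1 and Lhx6 read between 12.74 and 13.14 at 6 h and between 12.69 and 13.09 at 1 h. Nkx2-1, a transcription factor of the MGE, read 6.48 and 6.70 at 6 h and 6.86 and 6.66 at 1 h, about the array median. The excitatory genes Neurod6, Tbr1 and Slc17a7 read at most 5.46 at 6 h and 5.48 at 1 h, below the median. Other excitatory markers did not: 6 of the 16 tested had means above the median at both times.

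Of 12378 genes tested, 1589 (12.8%) passed an adjusted p of 0.05 in limma, a linear model with moderated variances, after Benjamini-Hochberg adjustment over all of them. At 6 h 506 (4.09%) were higher and 1083 (8.75%) were lower than at 1 h. Of the largest changes, 40 genes were at least 4-fold higher and 20 were at least 4-fold lower. At 2-fold the counts were 222 higher and 380 lower. All 1589 had both arrays of one time on the same side of both arrays of the other. Genes that were not called, such as Fos and Homer1, were also apart in this way. The share over all genes tested was not counted, so this adds nothing to the calls. The median difference over all genes tested was -0.04. The count rests on a spread estimated from all 24 arrays: fitted to the 4 arrays alone, limma called 5 genes, Egr2 lower and Acan, Cacng5, Mir670hg and the unnamed transcript 2610206C17Rik higher. Leaving out an array gave 485 calls without 6 h repeat 1, 1049 without 6 h repeat 2, 670 without 1 h repeat 1 and 1091 without 1 h repeat 2.

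**Figure D1:**
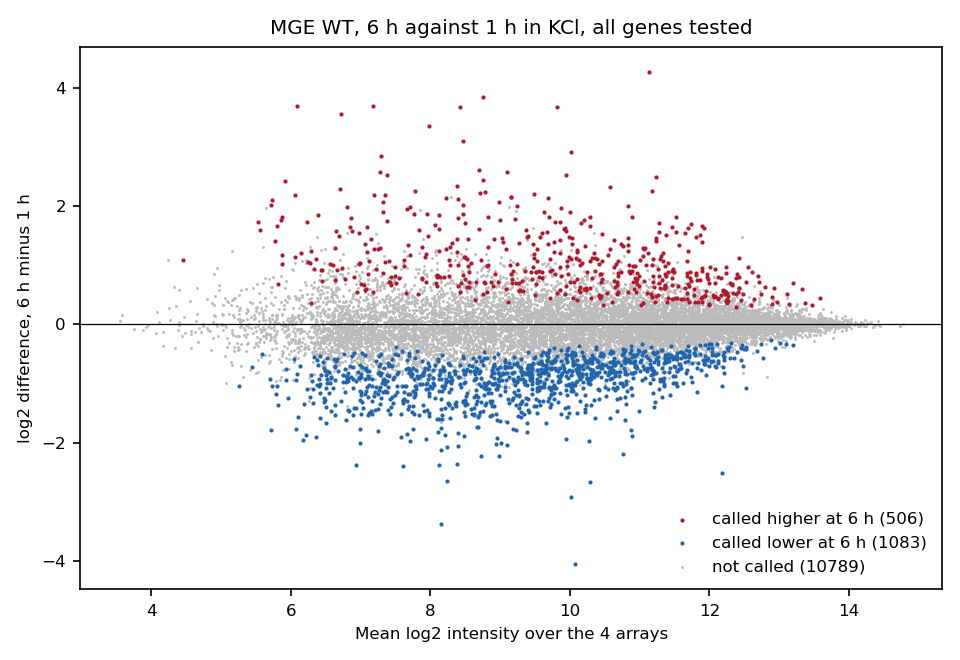
Each point is a gene tested, with its mean log2 intensity over the 4 arrays on the x axis and its log2 difference, 6 h minus 1 h, on the y axis. Genes called higher at 6 h (506) are red, genes called lower (1083) are blue and the others are grey; the Acan rise lies at 4.27 and the deepest fall lies at -4.06.

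Early transcription factors were among the largest falls. Of 24 tested members of a list of immediate early transcription factors, 10 were lower at 6 h and 0 higher, with a list median of -0.83 (8.75% of all genes tested were lower). Egr2, a zinc finger transcription factor, read 8.23 and 7.85 at 6 h, against 12.10 and 12.10 at 1 h, and 6.85 and 7.49 in the silenced 0 h cultures. Both 6 h arrays were far below both 1 h arrays, a 16.7-fold fall (log2 -4.06 ± 0.27, adjusted p = 1.97e-06). Npas4, a bHLH-PAS factor whose gene responds to calcium entry, read 9.32 and 8.59 at 6 h, against 12.04 and 11.20 at 1 h and 5.70 and 5.84 at 0 h. It fell 6.35-fold (-2.67 ± 0.25, adjusted p = 1.65e-05), and its 6 h arrays stayed above its 0 h arrays.

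Fosb, a partner in AP-1 complexes, read 9.29 and 7.82 at 6 h, against 11.24 and 11.71 at 1 h (log2 -2.92 ± 0.43, adjusted p = 0.00057). The 6 h arrays differed by more than a log2 unit from each other and were still both below the 1 h arrays. Egr1 read 11.08 and 10.76 at 6 h, against 13.46 and 13.40 at 1 h (-2.51 ± 0.21, adjusted p = 7.51e-06), and its 0 h arrays at 10.68 and 10.89 were about as high as the 6 h arrays. Nr4a1, an orphan nuclear receptor, read 10.08 and 9.24 at 6 h, against 11.84 and 11.87 at 1 h (-2.19 ± 0.23, adjusted p = 3.04e-05), with 4.71 and 4.50 at 0 h. Its 6 h level was between those of the other times. Egr3 fell 6.27-fold, Ier2 5.19-fold and Junb, a partner of Fos proteins, 4.08-fold. Maff (-1.93) and Jun (-1.15) were the remaining members called, and are named after their values were seen. The list median was -1.12 without 6 h repeat 1, -0.81 without 6 h repeat 2, -0.86 without 1 h repeat 1 and -0.79 without 1 h repeat 2.

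The 3 named early factors with the largest falls that had an entry in the RefSeq promoter table (GRCm38.p6) are shown from 250 bases before to 50 bases after the transcription start, on the gene's own strand. They are shown because calcium-responsive elements of such genes are known to lie near the start. The windows are chr10:67537619-67537918 (+) for Egr2, which has 5 listed starts of which the middle one was taken, chr7:19309996-19310295 (-) for Fosb and chr19:4989922-4990221 (-) for Npas4. Capitals mark matches on either strand to any of 6 motifs: TGACGTCA, the full cAMP response element (CRE), TGACG, the CRE core contained in it, TGANTCA (AP-1), CACGTG (the E-box), the bHLH-PAS core TCGTG and the CArG box bound by serum response factor.
Egr2: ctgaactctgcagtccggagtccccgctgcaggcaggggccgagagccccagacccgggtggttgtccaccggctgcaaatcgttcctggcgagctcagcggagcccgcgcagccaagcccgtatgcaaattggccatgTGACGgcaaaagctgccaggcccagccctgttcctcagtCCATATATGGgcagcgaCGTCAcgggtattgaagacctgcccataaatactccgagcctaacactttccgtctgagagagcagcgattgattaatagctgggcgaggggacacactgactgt
Fosb: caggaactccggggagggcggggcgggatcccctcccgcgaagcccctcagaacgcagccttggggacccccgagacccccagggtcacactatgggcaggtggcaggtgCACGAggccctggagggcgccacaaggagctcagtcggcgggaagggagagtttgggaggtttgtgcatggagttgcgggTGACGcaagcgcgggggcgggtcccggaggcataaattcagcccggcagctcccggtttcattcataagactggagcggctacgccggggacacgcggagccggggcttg
Npas4: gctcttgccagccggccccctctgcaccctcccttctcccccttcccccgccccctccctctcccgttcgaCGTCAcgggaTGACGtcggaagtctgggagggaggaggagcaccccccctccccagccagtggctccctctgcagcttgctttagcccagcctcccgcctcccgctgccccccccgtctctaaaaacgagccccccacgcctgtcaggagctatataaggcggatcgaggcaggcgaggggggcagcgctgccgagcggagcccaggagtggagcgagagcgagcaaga
The Egr2 window held a CRE core at -111 to -107 and another at -55 to -51, counted from the start, and a CArG box at -72 to -63. Fosb held a CRE core at -60 to -56 and a TCGTG core at -140 to -136. Npas4 held CRE cores at -179 to -175 and at -169 to -165. Of the 10 falling early factors, 7 had a promoter in the table and 6 of these held a CRE core, against 31.9% of 10016 promoters of genes tested. A CArG box was in 1 of the 7 and in 1.26% of all, and a full CRE in 1 of 7 and in 3.17%. TCGTG was in 2 of 7 and in 21.6%, CACGTG in 1 of 7 and in 9.88%, and the AP-1 letters in 0 of 7 and in 4.44%. A match is a run of letters, not a bound site.

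Early genes other than transcription factors were divided. Of 22 tested members of a list of early effectors, 5 (22.7%) were lower and 1 (4.55%) was higher. Over all genes 8.75% were lower and 4.09% higher. The list median was -0.04, the same as over all genes. Arc, a cytoskeleton-associated protein that acts at excitatory synapses, read 6.49 and 6.43 at 6 h, against 10.07 and 9.60 at 1 h and 6.41 and 6.34 at 0 h. Both 6 h arrays were below the array median and level with the 0 h arrays, a 10.4-fold fall (-3.38 ± 0.34, adjusted p = 2.63e-05). Btg2, an antiproliferative gene, fell 3.4-fold (-1.76 ± 0.34), and without 6 h repeat 1 its call was lost (adjusted p = 0.0759). Gadd45b (-1.37 ± 0.40) and Gadd45g (-1.20 ± 0.31), stress-inducible genes linked to DNA demethylation, were also lower, and each lost its call without any one of the 4 arrays (adjusted p up to 0.283 and 0.143). Mcl1, an anti-apoptotic gene, was the remaining one lower (-0.35 ± 0.09), and Rgs2, which restrains G protein signalling, the one higher (0.63 ± 0.18). Leaving out an array left 1 to 2 members lower and 0 higher, with 1 lower without 6 h repeat 1.

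For several early genes the difference did not pass the test. Fos read 12.75 and 12 at 6 h, against 13.21 and 13.31 at 1 h, where the 0 h arrays held 7.46 and 6.58. The 6 h arrays were both lower than the 1 h arrays, but the difference of -0.88 ± 0.36 did not pass the test (adjusted p = 0.131). Homer1, a postsynaptic scaffold gene, differed by 0.44 ± 0.18 (adjusted p = 0.142). Its brightest probe set was 0.20 ± 0.18 above 0 h at 1 h, so this probe set showed no clear early rise. Whether the other Homer1 probe sets rose by 1 h was not tested. Plk2, a kinase of synaptic scaling, differed by -0.15 ± 0.41 (adjusted p = 0.899) with overlapping arrays. The mean of all Homer1 probe sets, in place of the brightest, passed the test (0.75, adjusted p = 0.00646). Among members chosen after their values were seen, Nr4a3 read 13.59 and 13.42 at 6 h, against 13.42 and 13.47 at 1 h, and Fosl2 13.09 and 12.77 at 6 h, against 12.20 and 12.78 at 1 h. Neither passed the test (adjusted p = 0.862 and 0.228).

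The persistence of early genes can be set out as the share of the 1 h rise over 0 h that was left at 6 h, on the log2 scale. Both differences use the same 1 h arrays, and the 0 h pair is the least alike of the series, so the shares are a description. Of the early list members, 23 were over 2-fold above 0 h at 1 h. By 6 h, 13 of these were called lower than at 1 h and 10 were not called, beside 8.75% of all genes lower. The 23 were chosen on the same 1 h arrays that the test uses, which favours a fall. This count is therefore a description too. The share left was 2.53% for Arc, 5.11% for Egr1, 6.23% for Gadd45b, 17.7% for Egr2 and 20.1% for Btg2. It was 39.0% for Junb, 40.0% for Egr3, 54.4% for Npas4, 55.1% for Fosb and 69.8% for Nr4a1. The order at the other end was 84.9% for Plk2, 85.8% for Fos, 102% for Nr4a3, 109% for Ptgs2 and Nr4a2 and 121% for Fosl2. So 5 of the 23 kept under 20% of the log2 rise and 6 kept over 80%. On the linear scale the order differed, with 12 of the 23 under 20% and 5, without Fos, over 80%. There 12.2% of the Fosb rise, 14.3% of the Npas4 rise and 53.5% of the Fos rise were left. For 8 of the 23 the 0 h mean lay below the array median and was not shown to be above background, which their shares depend on. These were Arc, Ier2, Junb, Egr3, Npas4, Fosb, Nr4a1 and Ptgs2, and the 6 h and 1 h means of Ptgs2 were also below that median.

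**Figure D2:**
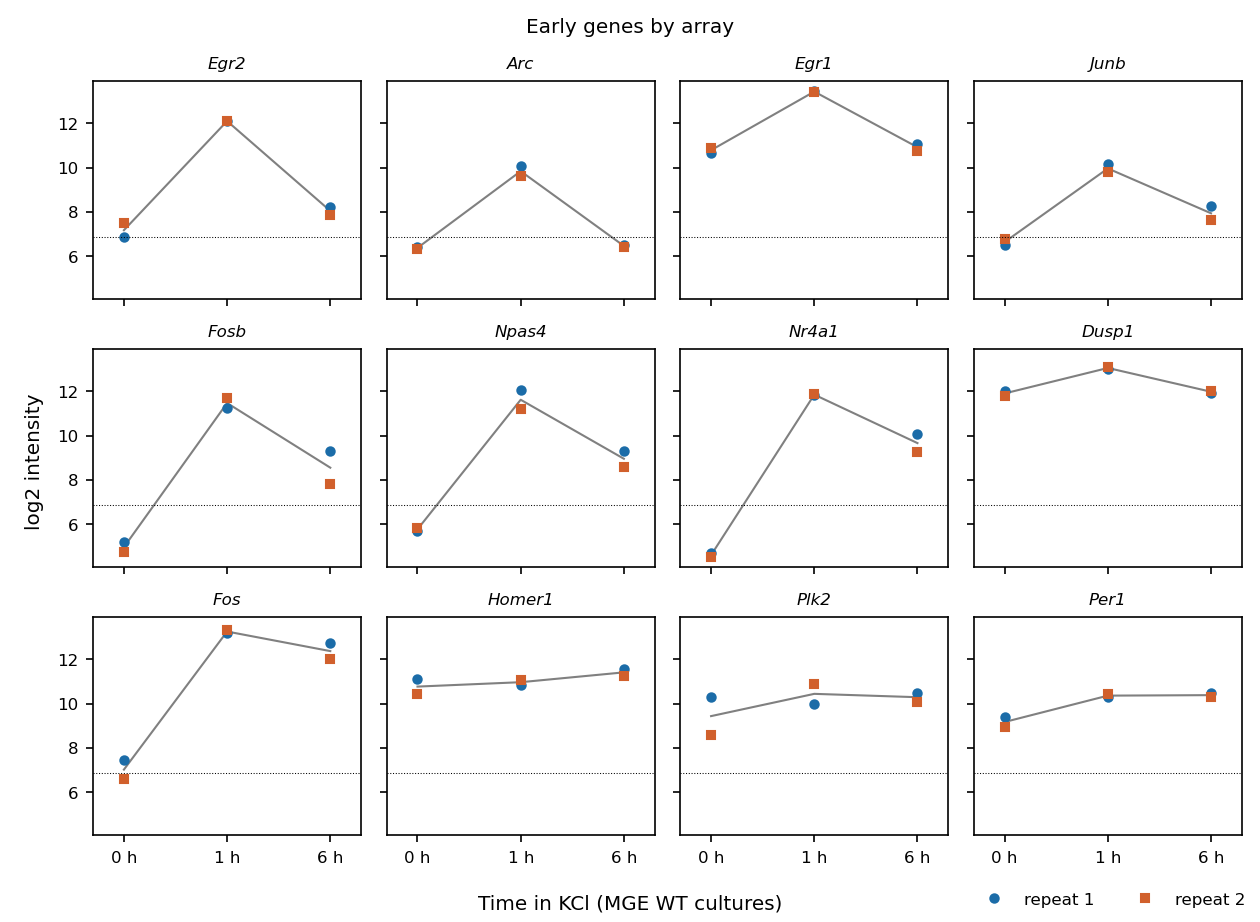
Log2 intensity (y axis) of 12 early genes in MGE WT cultures at 0, 1 and 6 h of KCl (x axis); circles are repeat 1, squares repeat 2, the line joins the means and the dotted line is the mean array median. Egr2, Arc and Egr1 peak at 1 h. At 6 h Arc and Egr1 are back near 0 h, and the Egr2 arrays lie somewhat above their 0 h arrays (by 0.87 ± 0.27). Fosb, Npas4 and Nr4a1 are in between, and the Fos arrays at 6 h lie much nearer to the 1 h than to the 0 h arrays.

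Arrays outside the comparison give a second way to pick early genes. In MGE KO cultures 68 of all genes tested stood at least 2-fold above 0 h after 1 h. In MGE WT cultures 21 of these 68 were lower at 6 h than at 1 h, 5 were higher and 42 were not called, with a median difference of -0.54 (8.75% of all genes were lower and 4.09% higher). Picked in the same way on CTX WT cultures, 109 genes gave 23 lower, 11 higher and 75 not called, with a median of -0.33. Conversely, of the 1083 genes that fell, 21 (1.94%) were at least 2-fold above 0 h at 1 h in MGE KO cultures, beside 0.549% of all genes. At 6 h there, 453 (41.8%) were at least 2-fold below 0 h, beside 4.91% of all genes.

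Other large falls were of genes outside the early lists. Wnt7a, a secreted Wnt ligand, read 7.48 and 8.27 at 6 h, against 10.16 and 10.02 at 1 h and 10.38 and 10.47 at 0 h. Both 6 h arrays lay below all arrays of the other times, a 4.65-fold fall (-2.22 ± 0.24, adjusted p = 5.45e-05). Brca2, which acts in repair of DNA breaks, read 7.17 and 7.24 at 6 h, against 9.49 and 9.07 at 1 h (-2.08 ± 0.15, adjusted p = 2.15e-06). Cacna1d, the pore subunit of an L-type calcium channel, read 9.33 and 9.24 at 6 h, against 11.21 and 11.31 at 1 h and 11.21 and 11.13 at 0 h (-1.97 ± 0.19, adjusted p = 1.65e-05). Again the 6 h arrays were lowest and close together. Zmat1 and Zkscan16, zinc finger genes, fell 5.26-fold and 4.18-fold, Klhdc1, a kelch-domain gene, 4.69-fold, Mettl8, a methyltransferase gene, 4.37-fold and the transcript Zfp85os 5.17-fold. Zkscan16 lost its call without 6 h repeat 2 or without 1 h repeat 1 (adjusted p up to 0.233).

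Of 26 tested genes of cell cycle and DNA replication, 4 (15.4%) were lower and 0 higher, beside 8.75% of all genes lower, with a list median of -0.13. Of the 4, 3 encode subunits of the MCM helicase that unwinds DNA, Mcm6 (-1.49 ± 0.22), Mcm5 (-1.17 ± 0.28) and Mcm7 (-0.81 ± 0.22). The other was Ccne1, the cyclin E1 gene (-0.93 ± 0.13, adjusted p = 0.000465). Mcm6 read 9.14 and 9.35 at 6 h, against 11.02 and 10.45 at 1 h. The proliferation marker Top2a read 7.89 and 8.68 at 6 h, against 7.78 and 9.22 at 1 h, where repeat 2 was higher than repeat 1 at both times. Mcm5 lost its call without 6 h repeat 1 or 1 h repeat 1 (adjusted p up to 0.177), and Mcm7 without those or 1 h repeat 2 (up to 0.314). The count of genes lower was 2 without repeat 1 of either time, 6 without 6 h repeat 2 and 3 without 1 h repeat 2. The list median changed sign, to 0.11 without 6 h repeat 1, and was 0.004 without 1 h repeat 2, -0.42 without 6 h repeat 2 and -0.52 without 1 h repeat 1. In bulk RNA, fewer cells of a type and less RNA per cell cannot be told apart.

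The genes that appeared late were led by Acan, which encodes aggrecan, the core proteoglycan of the perineuronal nets around many inhibitory neurons. Acan read 13.26 and 13.29 at 6 h, against 8.91 and 9.10 at 1 h and 8.78 and 9.15 at 0 h. The 6 h arrays stood 19.3-fold higher (4.27 ± 0.59, adjusted p = 0.000333), and the 1 h arrays were level with the 0 h arrays. Il21, a cytokine gene, read 7.82 and 8.05 at 6 h, against 3.90 and 4.59 at 1 h and 3.65 and 4.02 at 0 h (3.70 ± 0.19, adjusted p = 1.16e-07). Its 1 h and 0 h arrays were all below the array median, so the 13-fold difference rests on levels not shown to be above background. Mir670hg, a host transcript of a microRNA, read 10.65 and 10.71 at 6 h, against 6.97 and 6.71 at 1 h (3.85 ± 0.29, adjusted p = 2.31e-06). Cacng5, an auxiliary subunit of AMPA receptors, read 11.71 and 11.59 at 6 h, against 8.11 and 7.86 at 1 h (3.67 ± 0.27, adjusted p = 2.31e-06). In both the 6 h arrays were tightly together and clear of the rest.

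Promoter windows of the 3 largest rises are shown in the same form, since they appear after the early factors whose motifs were searched. They are chr7:79052976-79053275 (+) for Acan, chr2:94265041-94265340 (-) for Mir670hg, with the middle of 4 listed starts (the lower one), and chr3:37232587-37232886 (-) for Il21.
Acan: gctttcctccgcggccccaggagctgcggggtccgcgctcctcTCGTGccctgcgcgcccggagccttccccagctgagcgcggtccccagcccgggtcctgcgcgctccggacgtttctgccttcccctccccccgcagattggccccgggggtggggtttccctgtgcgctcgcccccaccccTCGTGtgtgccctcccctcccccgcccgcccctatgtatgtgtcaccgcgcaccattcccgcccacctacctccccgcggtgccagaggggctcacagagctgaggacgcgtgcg
Mir670hg: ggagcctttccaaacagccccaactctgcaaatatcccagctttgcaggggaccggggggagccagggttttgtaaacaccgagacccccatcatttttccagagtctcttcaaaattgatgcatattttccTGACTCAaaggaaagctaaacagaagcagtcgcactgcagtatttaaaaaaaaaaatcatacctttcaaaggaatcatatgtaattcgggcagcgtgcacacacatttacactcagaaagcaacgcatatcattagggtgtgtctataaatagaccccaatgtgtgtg
Il21: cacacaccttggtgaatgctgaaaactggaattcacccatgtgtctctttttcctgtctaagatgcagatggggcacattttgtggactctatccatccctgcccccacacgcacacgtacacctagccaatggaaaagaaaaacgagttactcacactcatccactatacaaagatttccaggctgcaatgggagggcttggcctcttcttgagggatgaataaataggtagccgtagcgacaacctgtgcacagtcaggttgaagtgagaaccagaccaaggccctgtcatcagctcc
Acan held TCGTG at -207 to -203 and at -65 to -61, and Mir670hg held an AP-1 match at -118 to -112. Il21 held none of the 6 motifs in this window. Of the 15 largest rises, 10 had a promoter in the table. The AP-1 letters were in 2 of the 10, the CRE core in 3, TCGTG in 1, the full CRE in 1 and CACGTG and the CArG box in 0, to be read beside the shares over 10016 promoters given above.

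The other large rises were of mixed function. Rspo3, a secreted enhancer of Wnt signalling, read 9.03 and 9.02 at 6 h, against 5.56 and 5.10 at 1 h (3.69 ± 0.34, adjusted p = 1.53e-05). Sv2c, a synaptic vesicle glycoprotein gene, read 8.93 and 8.08 at 6 h, against 4.97 and 4.91 at 1 h (3.56 ± 0.26, adjusted p = 2.15e-06). Rerg, a small GTPase gene of the Ras family, read 9.92 and 9.41 at 6 h, against 6.51 and 6.12 at 1 h (3.34 ± 0.41, adjusted p = 0.00016). For each, all 1 h arrays were below the array median and all 6 h arrays above it. Calcrl, the receptor component for calcitonin gene-related peptide, rose 12.8-fold (3.68 ± 0.77), and its call was lost without 6 h repeat 1 (adjusted p = 0.0703). Trim66, a chromatin-associated protein gene, rose 7.58-fold, and Lvrn, an aminopeptidase gene, 6.07-fold. Rsph4a, a component of motile cilia, rose 5.97-fold, Mlf1 5.97-fold and Ndnf, a secreted neurotrophic factor gene, 5.79-fold.

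**Figure D3:**
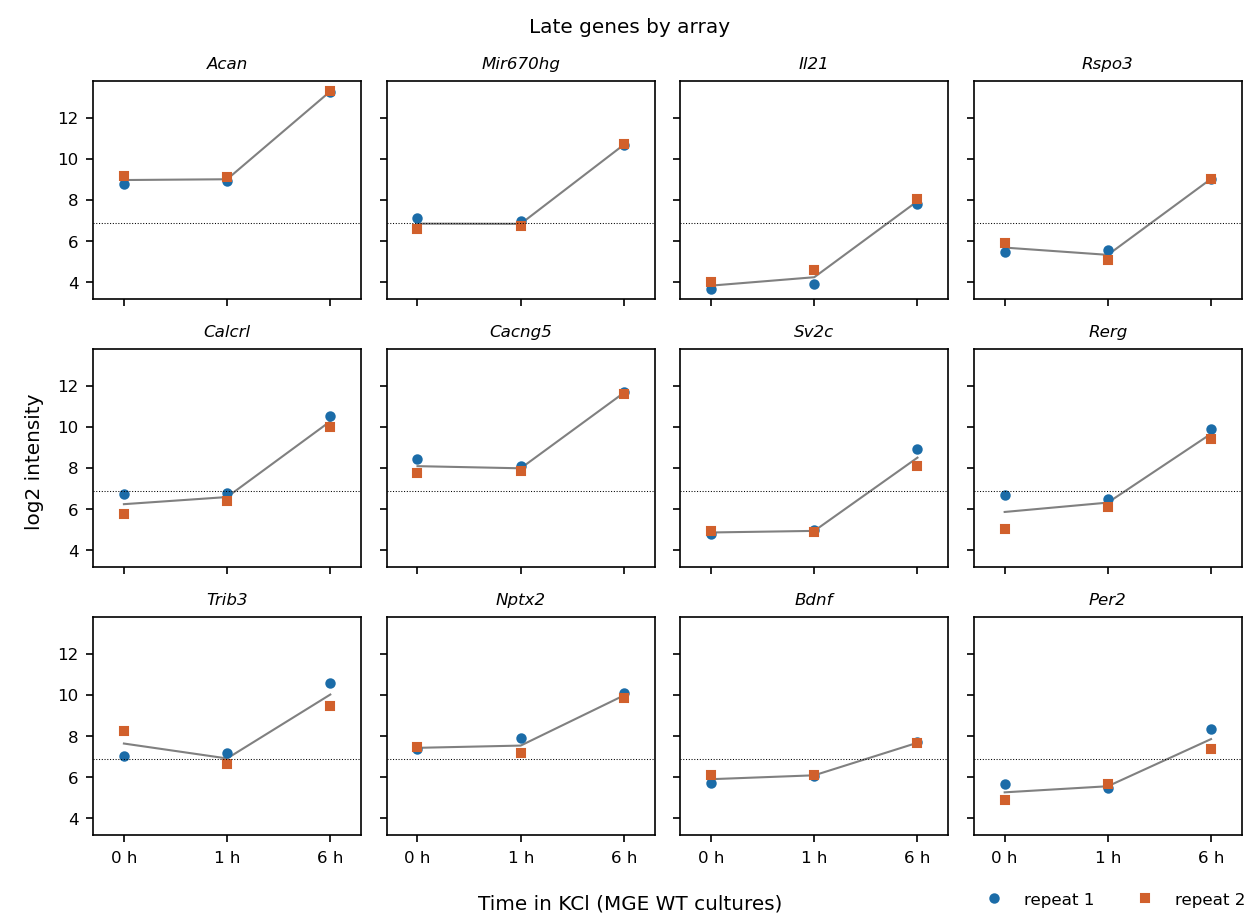
Log2 intensity (y axis) of 12 late genes in MGE WT cultures at 0, 1 and 6 h of KCl (x axis), drawn as for the early genes, with circles for repeat 1 and squares for repeat 2. In Acan, Il21, Mir670hg and Cacng5 the 0 h and 1 h arrays lie together and the 6 h arrays lie over 3 log2 units above the 1 h arrays.

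Late secreted factors and granule proteins had rises and no falls. Of 24 tested, 8 were higher and 0 lower, with a median of 0.75 (4.09% of all genes were higher). Nptx2, a secreted pentraxin that gathers AMPA receptors, read 10.10 and 9.84 at 6 h, against 7.92 and 7.15 at 1 h (2.44 ± 0.60, adjusted p = 0.0157). Bdnf, a neurotrophin gene, read 7.70 and 7.65 at 6 h, against 6.08 and 6.10 at 1 h (1.58 ± 0.45, adjusted p = 0.0331). Its repeats were nearly equal at each time, and the 1 h arrays were below the array median. Pcsk1, a prohormone convertase gene, rose 3.99-fold and Igf1, a growth factor gene, 4.76-fold. Vgf, a granule peptide precursor gene, differed by 0.80 ± 0.43 without passing the test (adjusted p = 0.277). These calls were fragile: leaving out an array left 1 higher without 6 h repeat 1, 2 without 6 h repeat 2, 3 without 1 h repeat 1 and 2 without 1 h repeat 2. Bdnf and Igf1 lost theirs without any one of the 4 (adjusted p up to 0.176 and 0.196), Nptx2 without any but 1 h repeat 1 (up to 0.121) and Pcsk1 without 6 h repeat 1 or 1 h repeat 2 (up to 0.123).

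Of 16 tested neuropeptide and hormone genes, 2 (12.5%) were higher and 0 lower, beside 4.09% and 8.75% of all genes. The share called was near the 12.8% of all genes. The median was 0.41. Cartpt, a peptide precursor gene, read 11.48 and 12 at 6 h, against 9.43 and 9.40 at 1 h (2.32 ± 0.31, adjusted p = 0.000298). Crhbp, which encodes a binding protein of corticotropin-releasing hormone, rose 3.5-fold (1.81 ± 0.48), and lost its call without 6 h repeat 1 or 1 h repeat 2 (adjusted p up to 0.221). Sst, the interneuron peptide somatostatin, read 14.16 and 13.87 at 6 h, against 13.86 and 13.87 at 1 h (0.15 ± 0.29, adjusted p = 0.847).

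Potassium channel genes were the ion channel group with most rises. Of 30 tested, 10 (33.3%) were higher and 0 lower, beside 4.09% and 8.75% of all genes. The median was 0.32. Kcnj4, an inward rectifier, read 10.00 and 10.05 at 6 h, against 7.93 and 7.98 at 1 h (2.07 ± 0.16, adjusted p = 4.16e-06). Kcns2, a modulatory subunit of Kv2 channels, read 9.64 and 9.45 at 6 h, against 7.32 and 7.10 at 1 h (2.34 ± 0.58, adjusted p = 0.0172). In both the groups were well apart and the 0 h arrays near the 1 h arrays. Kcnn2, a calcium-activated channel, rose 3.72-fold and Kcna4, an A-type channel, 3.16-fold. Without 6 h repeat 1 the count of channels higher was 2, without 6 h repeat 2 or 1 h repeat 1 it was 4 and without 1 h repeat 2 it was 3. Kcns2 lost its call without any one array (adjusted p up to 0.124), Kcnn2 without repeat 1 of either time (up to 0.083) and Kcna4 without 6 h repeat 1 or 1 h repeat 2 (up to 0.177).

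Among 25 sodium and calcium channels and pumps, 2 were higher and 1, Cacna1d, was lower, with a median of -0.02, a share called near the 12.8% of all genes. The 2 were Cacnb2, a calcium channel beta subunit (1.74 ± 0.43), and Scn1a, a sodium channel gene of inhibitory neurons (0.85 ± 0.23), and each lost its call without any but 1 h repeat 2 (adjusted p up to 0.124 and 0.239). Beside 4.09% and 8.75% of all genes, 3 of 26 (11.5%) synaptic vesicle genes were higher and 1 (3.85%) was lower (median 0.03). Beside Sv2c these were Sv2b (1.80 ± 0.34), Syt4 (0.86 ± 0.25), a synaptotagmin of dense-core vesicles, and Syt12 (-1.03 ± 0.17), the one that fell. Gabra2, a GABA-A receptor subunit, was the 1 gene of 16 (6.25%) in the GABA list that rose (1.16 ± 0.27). Of 25 glutamate receptor and scaffold genes 0 passed, beside 12.8% of all genes. Their largest differences were -0.70 for Grin2d and 0.62 for Grik3. Syt4 lost its call without any but 6 h repeat 2 (adjusted p up to 0.294) and Gabra2 without any but 1 h repeat 2 (up to 0.129).

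Genes of the Atf4 stress response, which is known to raise amino acid synthesis and transport, were the list with the largest share higher. Of 24 tested, 16 (66.7%) were higher and 0 lower, beside 4.09% and 8.75% of all genes. The median was 0.91. Trib3, a pseudokinase gene of this response, read 10.57 and 9.46 at 6 h, against 7.17 and 6.66 at 1 h and 7.02 and 8.25 at 0 h (3.11 ± 0.49, adjusted p = 0.000926). Psph, the last enzyme of serine synthesis, read 11.53 and 10.89 at 6 h, against 8.24 and 9.13 at 1 h (2.53 ± 0.37, adjusted p = 0.000555). In each the 6 h repeat 1 array was the highest. Chac1, a glutathione-degrading enzyme, rose 5.64-fold and Slc7a11, the cystine transporter, 4.28-fold. Slc7a11 was below the array median in the 1 h arrays (4.77 and 4.61) and in 6 h repeat 2 (6.04). Atf4 itself differed by 0.03 ± 0.12 (adjusted p = 0.932), a member named after its value was seen. Without 6 h repeat 1 the count was 4, and without 1 h repeat 1 it was 8, and in the fit without 6 h repeat 1 Chac1 (adjusted p = 0.083) and Slc7a11 (adjusted p = 0.0819) were not called. Of 20 heat shock chaperones 0 passed (median -0.04), beside 12.8% of all genes. The largest differences were -1.01 for Hspa1b (adjusted p = 0.053) and -0.95 for Hspa1a. Hspa1b passed with the repeat number as a block (adjusted p = 0.0343), with MGE arrays only (0.0337) and with a trended robust prior (0.0457).

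Inhibitors of the signalling that starts the early response moved both ways. Of 28 tested, 6 (21.4%) were higher and 2 (7.14%) lower, beside 4.09% and 8.75% of all genes. The median was 0.40. Dusp1, a MAP kinase phosphatase made early, read 11.94 and 12.02 at 6 h, against 13.00 and 13.12 at 1 h and 12.03 and 11.79 at 0 h (-1.08 ± 0.13, adjusted p = 0.00013). Nab1, a corepressor that binds Egr proteins, read 11.96 and 11.65 at 6 h, against 9.95 and 10.02 at 1 h (1.82 ± 0.16, adjusted p = 9.85e-06). Crem, which yields repressors of cAMP-responsive transcription, read 12.26 and 11.88 at 6 h, against 10.43 and 10.57 at 1 h and 8.59 and 8.58 at 0 h (1.57 ± 0.28, adjusted p = 0.00227). Crem was thus higher at each successive time, while Dusp1 was back at its 0 h level. The phosphatases Dusp14 (1.58 ± 0.43) and Dusp4 (1.34 ± 0.42) also rose, but Dusp14 lost its call without any but 1 h repeat 2 and Dusp4 without any one array (adjusted p up to 0.302 and 0.3). Leaving out an array left 2 to 3 of the list higher and 1 to 2 lower, with 1 lower without repeat 1 of either time.

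Clock genes gave 3 (16.7%) higher and 1 (5.56%) lower of 18, beside 4.09% and 8.75% of all genes. The median was 0.13. Per2, a clock repressor, read 8.33 and 7.38 at 6 h, against 5.45 and 5.67 at 1 h (2.29 ± 0.31, adjusted p = 0.000288), and both 1 h arrays were below the array median. Per1, its paralog, read 10.49 and 10.28 at 6 h, against 10.30 and 10.43 at 1 h, with overlapping arrays (0.02 ± 0.23, adjusted p = 0.976). Npas2 (1.21 ± 0.34) and the nuclear receptor gene Rorb (1.40 ± 0.38) rose, and Nr1d1, another nuclear receptor of the clock, fell (-0.62 ± 0.19). Npas2 lost its call without any one array (adjusted p up to 0.207), Rorb without 6 h repeat 1 or 1 h repeat 2 (up to 0.345) and Nr1d1 without any but 6 h repeat 2 (up to 0.455).

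Among 37 axon guidance genes 4 (10.8%) were higher and 1 (2.70%) lower (median 0.12). The share called was near the 12.8% of all genes. Sema6a, a membrane semaphorin, read 11.28 and 11.17 at 6 h, against 10.22 and 10.07 at 1 h (1.08 ± 0.12, adjusted p = 8.14e-05). Epha3 (1.38 ± 0.31), an ephrin receptor, and Nrp1 (0.71 ± 0.18), a semaphorin receptor, rose, and Sema3f (-0.86 ± 0.18), a secreted semaphorin, fell. Of 26 chromatin enzymes 3 were higher and 3 lower (11.5% each, beside 4.09% and 8.75% of all genes; median -0.03), among them the histone deacetylases Hdac4 (1.09 ± 0.17) and Hdac5 (0.59 ± 0.17), the demethylation enzyme Tet3 (0.89 ± 0.27) and the DNA methyltransferase Dnmt3b (-1.04 ± 0.13, with all 4 arrays below the array median). Of 26 Wnt genes, Rspo3 rose and Wnt7a fell (3.85% each, median -0.03). Of 17 cholesterol synthesis genes Sc5d alone (5.88%) passed (0.74 ± 0.13, median 0.08). Epha3 lost its call without 6 h repeat 1 or 1 h repeat 2, Sema3f without repeat 1 of either time, Hdac5 without any but 1 h repeat 1, and Nrp1 and Tet3 without any one array (adjusted p up to 0.149, 0.0636, 0.199, 0.126 and 0.236).

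Zinc finger genes with Zfp symbols, many of them repressors of the KRAB family, gave 10 higher and 21 lower of 279 tested, shares of 3.58% and 7.53% beside 4.09% and 8.75% of all genes. Zfp493 read 7.19 and 7.62 at 6 h, against 9.09 and 8.77 at 1 h (-1.53 ± 0.21, adjusted p = 0.000333), and Zfp467 also fell (-1.28 ± 0.21). Zfp40 (1.33 ± 0.29) and Zfp748 (1.23 ± 0.26) rose. Without 6 h repeat 1 the counts were 1 higher and 4 lower, without 1 h repeat 1 they were 4 and 7, and without 6 h repeat 2 they were 5 and 15. Zfp40 lost its call without repeat 1 of either time and Zfp748 without 6 h repeat 1 (adjusted p up to 0.0879 and 0.0743).

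**Figure D4:**
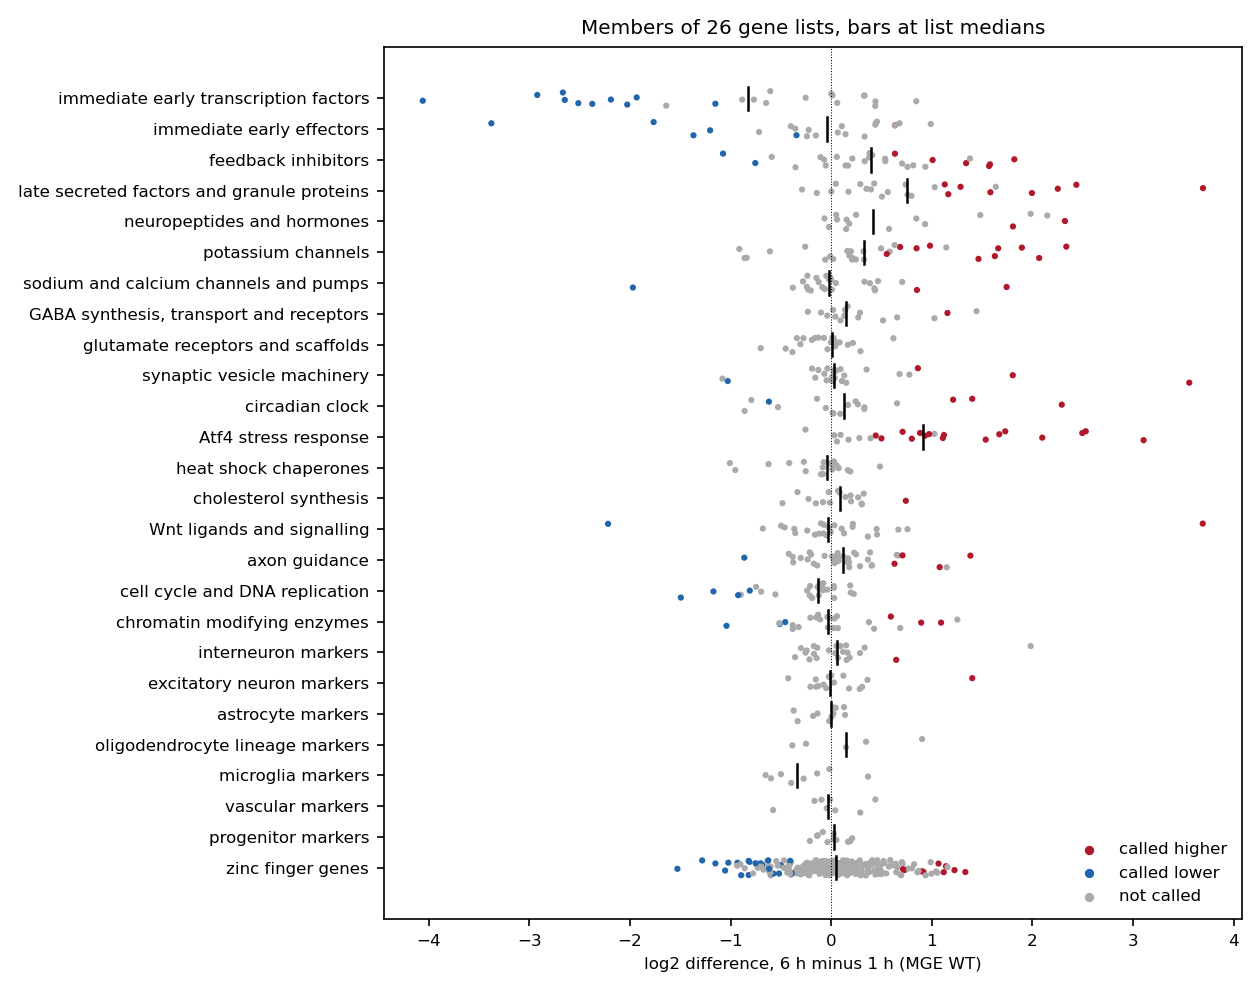
Each point is a tested member of a gene list (rows), with its log2 difference, 6 h minus 1 h, in MGE WT on the x axis; red is called higher, blue called lower, grey not called, and the black bar is the list median. Immediate early transcription factors have their median at -0.83, Atf4 stress genes at 0.91 and late secreted factors at 0.75, and the microglia markers, of which 0 of 8 were called, at -0.34.

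Few cell type markers passed the test, beside 4.09% of all genes higher and 8.75% lower. The interneuron and excitatory lists had 4.35% and 6.25% higher, near the share of all genes. In the lists of 11 or fewer members, 0 calls say little. Of 23 interneuron markers 1 rose, Dlx6 (0.65 ± 0.16), with a list median of 0.05 and a mean level of 11.24 and 10.98 at 6 h, against 11.07 and 10.96 at 1 h. Dlx6 lost its call without any but 1 h repeat 1 (adjusted p up to 0.109). Of 16 excitatory markers 1 rose, Rorb, whose 1 h arrays and 6 h repeat 2 were below the array median. The 16 had a mean level of 7.62 and 7.20 at 6 h, against 7.49 and 7.14 at 1 h, above the array median, and 6 of them, Bcl11b, Cux2, Camk2a, Nrgn, Foxp2 and Lmo3, lay above it at both times. None of 11 astrocyte, 5 oligodendrocyte lineage, 8 microglia, 8 vascular or 11 progenitor markers passed. The microglia markers had a mean level of 8.32 and 7.54 at 6 h, against 8.79 and 7.63 at 1 h, so that repeat 1 was higher than repeat 2 at both times. Their median difference of -0.34 was -0.67 without 6 h repeat 1, 0.07 without 6 h repeat 2, 0.32 without 1 h repeat 1 and -1.08 without 1 h repeat 2. The part of these cells in any difference was not tested.

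The same times can be compared in cultures of the other genotype. Npas4, the targeted gene, had 9.32 and 8.59 at 6 h, with 12.04 and 11.20 at 1 h, in MGE WT cultures. In MGE KO cultures it had 7.07 and 6.81 at 6 h, with 7.35 and 7.0 at 1 h. Where the probes lie relative to the deleted part is not given in the sources used here. Since Npas4 is the targeted gene, a genotype difference in its own signal is no result about other genes. The test of the difference, WT minus KO, called 0 of 12378 genes (0%) in limma, with 121 at an unadjusted p under 0.05. Its largest differences were Lmo2 (2.77 ± 0.67, adjusted p = 1) and Npas4 (-2.43 ± 0.35, adjusted p = 0.06), and Npas4 passed with the repeat number as a block (adjusted p = 0.00577), with cyclic loess (0.0483), without the filter on low values (0.0475) and with the mean of probe sets (0.0438). It also passed without MGE WT 6 h repeat 1 (0.0182) and without MGE WT 1 h repeat 2 (0.00645).

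The KO arrays share no array with the WT comparison. Of the 506 genes higher in MGE WT, 499 (98.6%) were higher in MGE KO, with a median of 0.91 in WT and 0.76 in KO. Of the 1083 lower in WT, 1076 (99.4%) were lower in KO, with medians of -0.86 and -0.85. Of all genes tested, 41.1% were higher and 58.9% were not higher at 6 h in KO, with a median of -0.06. Acan differed by 4.41 in KO, Il21 by 3.48, Cacng5 by 3.44 and Egr2 by -3.96. A p above the threshold does not show that the genotypes acted alike.

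The change was also set against that in cortical WT cultures. The difference of the 2 changes, MGE minus CTX, passed for 739 genes (5.97%), of which 508 were more positive in MGE and 231 more negative. Of the immediate early transcription factors, 7 of 24 were more negative in MGE and 0 more positive. Of the 279 Zfp genes 33 were more positive and 3 more negative. These stand beside 508 more positive and 231 more negative of all 12378 genes tested. Egr2 changed by -4.06 in MGE and by -0.90 in CTX (difference -3.16 ± 0.38, adjusted p = 0.000607), its CTX arrays reading 11.86 and 12.41 at 6 h, against 13.16 and 12.91 at 1 h. Npas4 changed by -2.67 in MGE and -0.11 in CTX (difference -2.56 ± 0.35, adjusted p = 0.00147). Egr1 (-1.80 ± 0.30), Fosb (-2.62 ± 0.61) and Nr4a1 (-1.76 ± 0.32) differed in the same direction, so these early factors stayed closer to their 1 h level in CTX. For Arc (-1.63 ± 0.48, adjusted p = 0.063) and Fos (-0.70 ± 0.51, adjusted p = 0.511) the difference did not pass. The Fosb difference lost its call without MGE 6 h repeat 2, MGE 1 h repeat 2, CTX 6 h repeat 2 or CTX 1 h repeat 2 (adjusted p up to 0.0923).

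Some late genes differed between the cultures in the other direction. Il21 changed by 3.70 in MGE and -0.25 in CTX, where its arrays were 4.08 and 3.84 at 6 h, against 4.19 and 4.23 at 1 h, all far below the array median (difference 3.95 ± 0.27, adjusted p = 2.75e-06). Rspo3 changed by 3.69 in MGE and 0.50 in CTX, whose arrays already read 9.98 and 9.82 at 1 h (difference 3.20 ± 0.48). Cacng5 (3.16 ± 0.38), Trim66 (2.78 ± 0.43) and Sv2b (2.72 ± 0.48) also changed more positively in MGE, and Sv2b was much higher in CTX throughout, with 11.42 and 11.00 at 6 h and 11.92 and 12.33 at 1 h. Serpinb2, a protease inhibitor gene, had the reverse pattern. In MGE it read 5.36 and 4.66 at 6 h, against 4.58 and 4.59 at 1 h, all below the array median. In CTX it read 10.30 and 9.60 at 6 h, against 3.53 and 3.43 at 1 h (difference -6.04 ± 0.41, adjusted p = 2.75e-06). Baz1a (-3.43 ± 0.32), Dusp16 (-3.10 ± 0.50), Gem (-2.76 ± 0.52) and Dusp10 (-2.70 ± 0.46) likewise changed more positively in CTX. For Acan (0.74 ± 0.83, adjusted p = 0.709), Bdnf (-1.23 ± 0.64, adjusted p = 0.317), Nptx2 (-2.05 ± 0.85, adjusted p = 0.187) and Pcsk1 (-2.05 ± 0.65, adjusted p = 0.0798) the difference did not pass. The CTX 6 h repeats stood apart (r = 0.965, 980 genes over 2-fold apart), and Acan read 12.38 and 9.77 in them, against 7.94 and 7.15 at 1 h.

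Of the 506 genes higher in MGE WT, 392 (77.5%) were higher in CTX WT with a median of 0.44, and of the 1083 lower, 1027 (94.8%) were lower with a median of -0.83. Of all genes tested, 41.4% were higher and 58.6% were not higher in CTX WT, with a median of -0.09. The count of differences ranged from 241 without CTX 1 h repeat 2 to 1494 without CTX 6 h repeat 1, and was 282 without MGE 6 h repeat 2. It was 455, 425 and 424 without MGE 6 h repeat 1, MGE 1 h repeat 1 and MGE 1 h repeat 2. Fitted to the 8 arrays of the contrast alone, limma called 1 gene, Serpinb2.

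**Figure D5:**
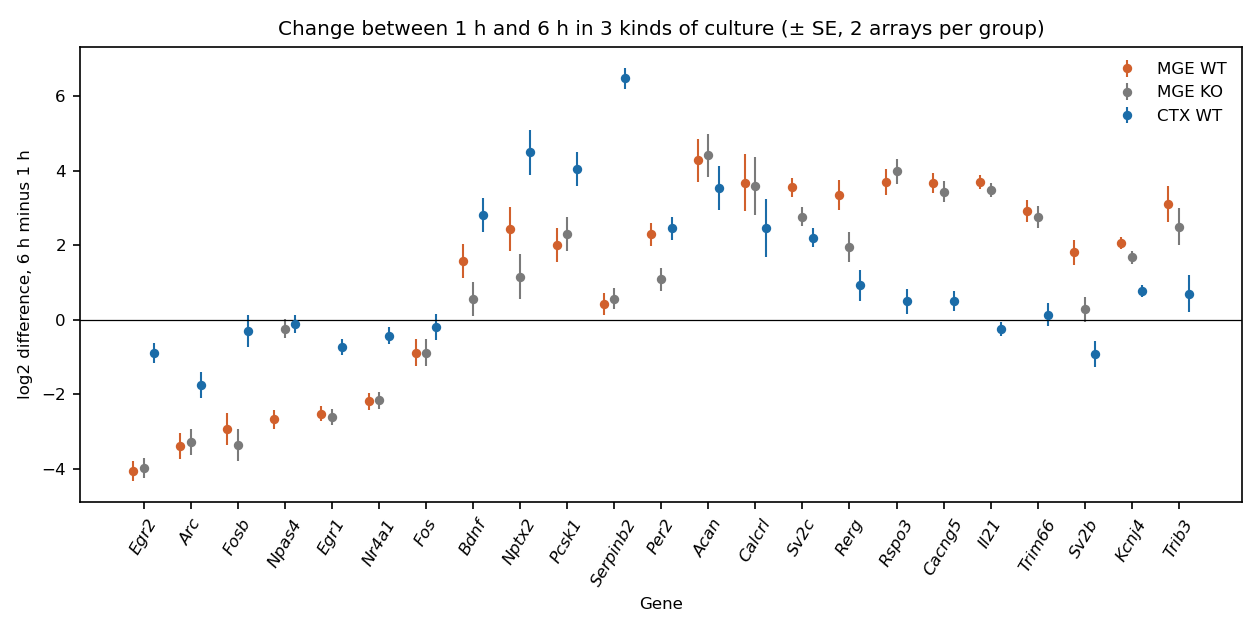
Log2 difference, 6 h minus 1 h (y axis, ± SE from the fit, 2 arrays per group), of 23 named genes in MGE WT, MGE KO and CTX WT cultures. Among these genes the 2 MGE genotypes lie farthest apart for Npas4 (-2.67 in WT and -0.24 in KO), while CTX WT lies nearer 0 for Egr2 and Il21 and far above for Serpinb2 (6.47).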

How the data were processed

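The authors deposited one linear intensity per probe set and array for 24 Affymetrix arrays, 45101 probe sets each. Per the submitters' processing notes the values come from RMA, with no version given. RMA gives all arrays a common distribution and would hide a change common to most genes. Here intensities were converted to log2 with no further scaling. Probe sets with 1 gene symbol (34958) were reduced to the brightest per gene (18194 genes), and the 12378 genes exceeding their array's median in 2 or more arrays were tested. Platform symbols were matched to RefSeq (GRCm38.p6) by Entrez identifier for 34754 probe sets.

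limma 3.58.1 in R 4.3.3 was fitted with 12 group means to all 24 arrays (12 residual and 2.41 prior degrees of freedom), which was tested on simulated data. Calls needed an adjusted p below 0.05 (two-sided, Benjamini-Hochberg, all 12378 genes together). The number of arrays limits the precision.

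Gene lists, members and the naming rule were chosen with earlier results of these data known. Named were the 15 largest called rises and falls, up to 4 called members per list or else its 2 largest as values, the largest differences between cultures, and a short list of well-known activity genes and marker genes. Riken and similar names were not used beyond counts of 5 or fewer. Genes outside the rule are said to be named after their values were seen or complete a count of 5 or fewer. Syt10 was not among the genes tested. Alternatives were other normalizations, filters, probe set rules and priors, the repeat number as a block, and leaving out each array.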

Additional observations from a re-analysis of the deposited data

Results flagged for a closer look

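The changes of 29 named genes between 1 h and 6 h differed between MGE WT and CTX WT cultures in limma's test of the difference (adjusted p under 0.05), and their values, MGE minus CTX in log2, follow. The largest negative ones were Serpinb2 at -6.04 ± 0.41, Baz1a at -3.43 ± 0.32, Egr2 at -3.16 ± 0.38 and Dusp16 at -3.10 ± 0.50. Gem at -2.76 ± 0.52 rests on MGE arrays far below the array median. Further negative ones were Dusp10 at -2.70 ± 0.46, Fosb at -2.62 ± 0.61, Npas4 at -2.56 ± 0.35 and Hspa1b at -2.47 ± 0.45. Egr1 had -1.80 ± 0.30, Nr4a1 -1.76 ± 0.32, Per1 -1.22 ± 0.33, Nr1d1 -0.99 ± 0.27, Syt12 -0.90 ± 0.23 and Dusp1 -0.78 ± 0.18.

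Positive differences were those of Il21 at 3.95 ± 0.27, Rspo3 at 3.20 ± 0.48, Cacng5 at 3.16 ± 0.38 and Trim66 at 2.78 ± 0.43. Ttc30a1 had 2.74 ± 0.56, Sv2b 2.72 ± 0.48, Rerg 2.42 ± 0.59 and Mir670hg 2.09 ± 0.40. The smaller ones were Zfp493 at 1.5 ± 0.30, a gene that was lower at 6 h in both cultures, Sv2c at 1.36 ± 0.36, Kcnj4 at 1.30 ± 0.23, Nab1 at 1.11 ± 0.23, Dnmt3b at 0.87 ± 0.19 and Sema6a at 0.67 ± 0.17. Leaving out 1 of the 8 arrays ended the calls of Per1, Nr1d1, Sema6a, Syt12, Sv2c, Dusp1, Rerg, Fosb, Dnmt3b, Ttc30a1 and Zfp493 in at least 1 case each. The cause of these differences was not tested.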

How the results depend on the processing

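Both counts of the main comparison stayed within 1.5 times their values (506 higher, 1083 lower) under quantile normalization, cyclic loess, no filter on low values, a filter of 12 arrays, the mean of probe sets, a trended robust prior and MGE arrays only. With MGE arrays only 1144 of the 1589 calls were shared and 12 of 108 named genes lost theirs, and with the mean of probe sets 1217 were shared and 5 of 101 lost theirs. The mean of probe sets put 41.4% of calls on the higher side, against 31.8% with the brightest probe set. Leaving out 1 array gave 141 to 338 genes higher and 344 to 753 lower. For MGE minus CTX (508 more positive, 231 more negative) it gave 142 to 1064 and 99 to 430, and for WT minus KO (0) it gave 0 to 1 lower. Fitted to their own arrays alone, the main comparison gave 4 higher and 1 lower, and MGE minus CTX 0 and 1, where fewer residual degrees of freedom are left. For WT minus KO, the more negative count was 1 with cyclic loess, 1 without the filter (and 1 more positive, Hpse) and 3 with the mean of probe sets (Npas4, Mup10 and 4933438K21Rik).

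The replicate block gave 2070 calls in the main comparison, of which 1581 were among the 1589. Among named genes it added Hspa1b, Grik3 (0.62, adjusted p = 0.0140) and Olig2 (0.90, adjusted p = 0.0151), and it gave 12 potassium channels higher and 3 lower, against 10 and 0. It gave 775 more positive and 428 more negative for MGE minus CTX, and 1 gene, Npas4, for WT minus KO. Same-numbered arrays deviated together in 28 of 30 pairs of groups (r = 0.111 to 0.857; 0.256 for MGE WT at 6 h and 1 h). The other 2 involve MGE WT at 0 h (r = -0.230 with WT 1 h, -0.188 with KO 0 h). The rule that every pair exceed 0.1 was not met, so the numbers were not taken to pair the arrays.

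Directions turned only in named genes that were not called. Leaving out an array, Mdm2 (0.03) ranged from -0.22 to 0.28, Per1 (0.02) from -0.084 to 0.13, Plk2 (-0.15) from -0.62 to 0.31 and Top2a (-0.21) from -0.93 to 0.51, and Mdm2 was at -0.17 with the mean of probe sets. The cause was not tested. With 2 arrays per group and no detection calls, levels under the array median limit all fold changes of dim genes. Such levels also include the 1 h arrays of Cacnb2, Sv2b and Dusp14 and 6 h repeat 2 of Egr3. For 20 called genes another probe set passed in the opposite direction.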
